A study of Mus musculus with 32 samples.

Results

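The genes of the mitochondrial respiratory chain were examined in dissociated cells of the median eminence (ME) of mice, a region at the base of the hypothalamus. They were chosen by name: every gene whose symbol begins with mt-, Nduf, Uqcr, Sdh (a to d), Atp5, or Cox followed by a number from 4 to 8. This gave 106 of the 27998 genes counted, of which 13 lie on the mitochondrial genome and 93 on nuclear chromosomes. The ME was taken from 5 male C57BL/6j mice (C57B/L6 in the labels) fasted for 16 h and from 5 more that had food back for 1 h after a fast of that length. All were 40 to 47 days old. The mice of each condition were pooled and their cells split over 2 droplet libraries, so neither condition has a biological replicate. The 32 records of the series are lanes and index parts of these 4 libraries.

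Cells make most of their ATP by passing electrons from NADH and succinate through complexes I to IV of the inner mitochondrial membrane and letting the protons so pumped flow back through complex V, the ATP synthase. Complexes I, III, IV and V are built from subunits of both genomes, whereas all 4 subunits of complex II are nuclear. The mitochondrial genome is copied and transcribed inside the organelle as long joint transcripts, while each nuclear gene has its own promoter, and a few nuclear subunits exist as paralogs used by particular tissues. Most mRNAs of both kinds carry poly(A) tails, through which the 3′ chemistry used here captures them. It counts each captured molecule once by a unique molecular identifier (UMI).

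The 5982 cells held 29288898 UMIs, and the 4 barcode numbers held 6508038 to 7806887 UMIs each. These numbers, 1 to 4, end each cell barcode and are not tied to a condition, so fasted and refed cells could not be compared and all values describe the cells together. Values of the 4 numbers are given as side-by-side measurements and not as replicates, and no test was run. 42 cells carried a barcode found under more than 1 number. Clusters were named by marker lists, which gave 13 types with 5866 cells. In each type all markers of its list were detected, and all were highest in that type except 1 of the 10 tanycyte markers. The names were given by these same lists, so this describes the types and is no test of their names. Levels are UMIs per 1e+06 of all UMIs of a type (CPM). They are not divided by gene length, since the 3′ tags count molecules. Intervals at the 95% level are exact and cover counting error only, and the UMIs of 1 cell are not independent.

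Over all cells, the 13 mt-encoded members made up 42564 CPM and the 93 nuclear-encoded members 30697 CPM, a ratio of 1.39. Among mt-encoded members, complex IV held 18175 CPM in 3 genes, complex V 9639 CPM in 2 genes, complex I 8687 CPM in 7 genes and complex III 6062 CPM in mt-Cytb alone. Of the nuclear-encoded members, complex I led with 12051 CPM over its 44 genes, and complex II was lowest with 708 CPM over its 4 genes. The subunits of complex II also belong to the citric acid cycle. These sums cover different numbers of genes and are not levels per gene.

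The 13 mt-encoded genes gave very unequal numbers of UMIs. mt-Atp6, a channel subunit of ATP synthase, gave 279650 UMIs, and mt-Co3, a core subunit of complex IV, gave 275759. mt-Atp8 gave 2662 UMIs. mt-Atp8 and mt-Atp6 are read from a shared mRNA, and in the GENCODE annotation of GRCm38 the end of mt-Atp8 and the start of mt-Atp6 overlap by 43 bases on the forward strand of the mitochondrial genome (chromosome M, 7927 to 7969). The overlap is shown because a read inside it fits both genes, so the split of UMIs between them depends on where tags fall and is uncertain. No base is marked by capitals:
mt-Atp8/mt-Atp6 overlap: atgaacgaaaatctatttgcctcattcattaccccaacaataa
mt-Nd4l and mt-Nd4 overlap in the same way by 7 bases and gave 3213 and 84770 UMIs. mt-Nd6, the only mt-encoded member on the reverse strand, overlaps mt-Nd5 by 14 bases and gave 384 UMIs, the fewest of the 13. How fully the mRNA of each mt-encoded gene is captured was not tested, so a low count need not be a low level.

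The nuclear-encoded sum differed 2.39-fold between cell types, from neuron-like cells at the top to microglia-like cells at the bottom. Neuron-like cells held 42524 CPM (95% interval 42366 to 42681, 508 cells), and the 4 barcode numbers gave 41369, 41896, 43019 and 43089 CPM. Mural-like cells, named by markers of the pericytes and smooth muscle of vessel walls, came next with 38105 CPM (37302 to 38920, 75 cells). Their 4 values ran from 35358 to 39748 CPM. Every barcode number placed the neuron-like sum above the highest mural-like value. Tanycyte-like cells, the elongated glia that line the floor of the third ventricle, held 32593 CPM (32458 to 32727, 1637 cells).

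From tanycyte-like cells down to vascular and leptomeningeal cell (VLMC)-like cells the order ran in small steps, in which the values of the 4 numbers overlapped between all neighbours. In falling order these were tanycyte-like, differentiating OPC-like (oligodendrocyte precursor cells that have begun to mature, 31398 CPM), OPC-like (30251 CPM), ependymocyte-like (28435 CPM), endothelial-like (27622 CPM), pars tuberalis-like (27349 CPM), astrocyte-like (26093 CPM) and VLMC-like cells (23920 CPM). Mature oligodendrocyte-like cells were lower, with 22002 CPM (21866 to 22137, 666 cells) and 21608 to 22270 CPM in the 4 numbers. Macrophage-like cells held 19932 CPM and microglia-like cells 17768 CPM (17545 to 17993, 405 cells). The 4 microglia-like values lay between 17715 and 17902 CPM, below all macrophage-like values, which began at 18682 CPM.

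The mt-encoded sum followed another order and differed 3.41-fold. Mural-like cells were highest with 59689 CPM (58684 to 60707), but their barcode numbers gave 53204, 41977, 66050 and 69256 CPM. This was the widest spread of any type, over 17 to 21 cells per number, and its lowest value lay within the values of astrocyte-like cells (41327 to 42359 CPM). Within the mural-like cells, the mt share of a cell correlated with its depth (Spearman's rho of 0.655 over 75 cells of 1 pool, a description), and with every cell thinned to 1000 UMIs the mural-like sum was 53693 CPM. The mural-like cells of the 4 numbers had median depths of 1989, 1914, 3120 and 3851 UMIs, so the numbers with the higher sums were also the deeper ones. The part of depth in this spread was not tested. Pars tuberalis-like (49968 CPM), tanycyte-like (49577 CPM), ependymocyte-like (47926 CPM) and mature oligodendrocyte-like cells (46350 CPM) came next, each overlapping with the type above it. The 4 mature oligodendrocyte-like values (44166 to 47985 CPM) lay above those of astrocyte-like cells, the next type. Microglia-like cells (17525 CPM) and macrophage-like cells (19612 CPM) were again lowest, and all their values lay below those of the other 11 types. The plot of both sums by cell type shows neuron-like cells at the top for nuclear-encoded members and in the middle for mt-encoded ones.

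**Figure D1:**
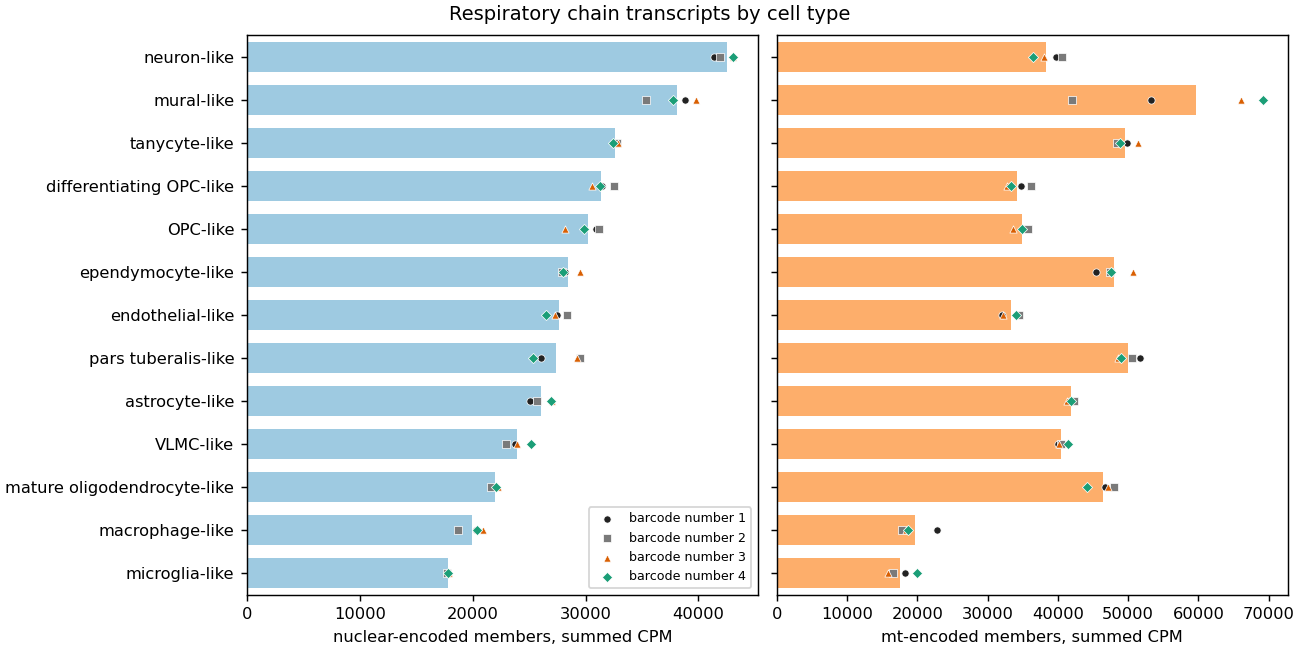
Summed CPM of the 93 nuclear-encoded members (left) and of the 13 mt-encoded members (right) in 13 cell types, ordered by the nuclear sum. Bars are the values over all cells of a type and the points are the 4 barcode numbers. Neuron-like cells lead on the left (42524 CPM), and mural-like cells lead on the right (59689 CPM) with points from 41977 to 69256 CPM.

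The ratio of mt-encoded to nuclear-encoded UMIs was highest in mature oligodendrocyte-like cells and lowest in neuron-like cells, a 2.34-fold difference. Mature oligodendrocyte-like cells had a ratio of 2.11 (2.09 to 2.12), with 2.13, 2.22, 2.12 and 2.00 in the 4 numbers. Neuron-like cells had 0.900 (0.895 to 0.905), with 0.960, 0.969, 0.883 and 0.845. The 4 values of the first lay above those of every other type, while those of neuron-like cells overlapped with macrophage-like (0.878 to 1.12) and microglia-like cells (0.879 to 1.12). The top place of mature oligodendrocyte-like cells rested on the largest of their clusters (502 cells). Their other clusters, described below, had ratios under that of pars tuberalis-like cells. A ratio near or under 1 stood beside the highest nuclear sum in neuron-like cells and beside the lowest sums of both kinds in microglia-like and macrophage-like cells. In the other types the ratio lay between 1.09 in differentiating OPC-like and 1.83 in pars tuberalis-like cells.

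**Figure D2:**
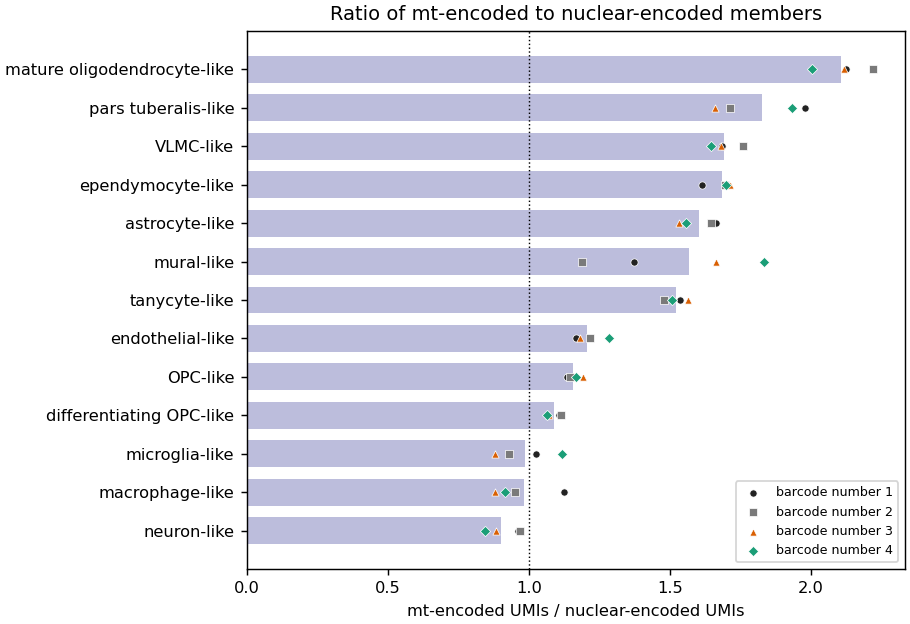
UMIs of the 13 mt-encoded members divided by UMIs of the 93 nuclear-encoded members in 13 cell types. Bars are all cells of a type, points are the 4 barcode numbers, and the dotted line marks a ratio of 1. The points of mature oligodendrocyte-like cells (2.00 to 2.22), taken over all their clusters, lie above all others, and mural-like points span 1.19 to 1.83.

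Other features of the types moved with these sums, and their part in them was not tested. Neuron-like cells were the deepest, with a median of 13412 UMIs per cell against 2246 to 8604 in the other types. The nuclear RNA Malat1 ranged from 20111 CPM in neuron-like to 124616 CPM in astrocyte-like cells, and over the 13 types its log2 level correlated with that of the mt to nuclear ratio at r = 0.66 (Spearman's rho of 0.60, a description over types that share libraries). Counted per 1e+06 UMIs without mitochondrial genes and Malat1, mural-like cells held 45621 and neuron-like cells 45160 nuclear-encoded UMIs, so the top of the nuclear order turned with that scale. Genes of the stress of dissociation (such as Fos and Jun) summed to 2812 CPM in microglia-like and 2453 CPM in macrophage-like cells, and ranged from 80.2 CPM in differentiating OPC-like to 6070 CPM in pars tuberalis-like cells. The 3 cells set apart as erythrocytes by their haemoglobin RNA held 5693 CPM of mt-encoded and 7730 CPM of nuclear-encoded members. They lay in the clusters named pars tuberalis, endothelial and macrophage. Whether they are erythrocytes was not tested, so these values are not a floor for cells without mitochondria.

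Single nuclear-encoded members mostly followed the sum. Of the 86 with at least 500 UMIs in named types, 47 were highest in neuron-like cells (54.7%, against 15.4% of all 7681 genes with that many UMIs) and 17 in mural-like cells (19.8%, against 5.36%). Of the same 86, 37 were lowest in microglia-like cells (43.0%, against 8.05% of all genes) and 21 in macrophage-like cells (24.4%, close to the 20.6% of all genes). The fold between the highest and the lowest type had a median of 2.87 over these members, on a scale with 10 CPM added, against 4.62 over all such genes. Members correlated with the sum of the other nuclear members across the 13 types with a median r of 0.73, over 0.8 for 30 of 86, whereas other genes had a median r of 0.22 with the nuclear sum. Cox7a2 (r = 0.97) and Ndufb6 (r = 0.96) came closest to the sum of the others. Cox7a2l lay at the other end (r = -0.06). Among 7575 genes outside the symbol rule, those most like the nuclear sum were Snrnp27 (r = 0.91), Zc2hc1a (0.91), Hikeshi (0.91), Mdh2 (0.90) and Usmg5 (0.90). Mdh2 is on the citric acid cycle list used below. The rule goes by symbol, so genes outside it can still belong to the chain.

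**Figure D3:**
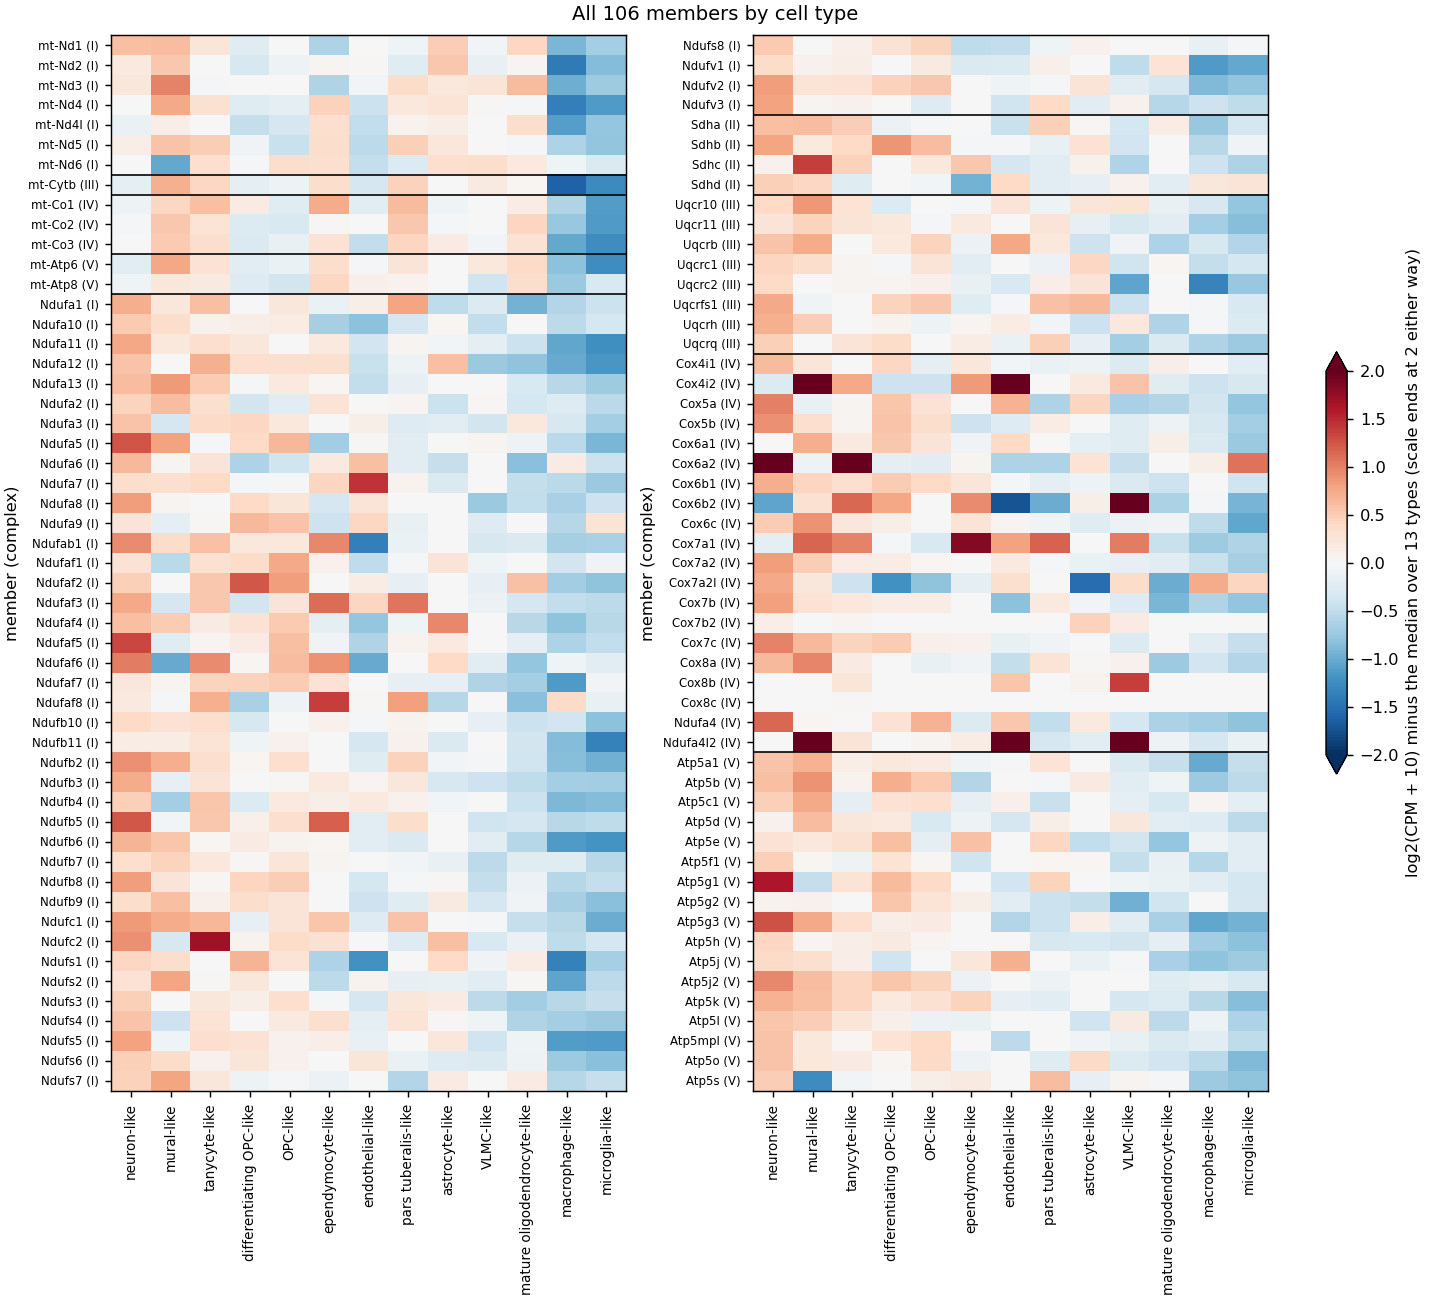
All 106 members (rows, with their complex in parentheses) in 13 cell types (columns, ordered by the nuclear sum), as log2(CPM + 10) minus the member's median over types. Red is above and blue below that median, with colours ending at 2 log2 units, and lines divide the 2 genomes and the complexes. Most nuclear rows are red in neuron-like and blue in macrophage-like and microglia-like cells, while Cox4i2, Ndufa4l2, Cox6a2, Cox6b2, Cox7a1 and Cox7a2l depart from this pattern.

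The promoters of the nuclear-encoded members were searched for motifs of factors known to act on respiratory genes. RefSeq gives 250 bases before the start (GRCm38.p6) for 74 of the 93 nuclear members under their symbol. The NRF1 motif GCGCATGCGC, which reads the same on both strands, was in 5 of the 74 (6.76%) against 0.877% of all 27025 genes in the table. The ETS motif CCGGAAG was in 14 (18.9%, against 7.83% of all genes), and the YY1 motif ATGGCGG was in 5 (6.76%, against 2.58%), each searched on both strands. Any of these was in 22 of the 74 (29.7%) and in 10.7% of all genes. Such a match is a description of letters and not a binding site, and the genes set beside the members were not matched for base composition. Members with a match followed the sum of the others to unlike degrees, from Ndufb6 (r = 0.96) to Sdhd (r = 0.11). A link between matches and levels was not tested. The 3 promoters shown are those of Cox6a1 and Atp5j, the members with matches to more than 1 of these motifs, and of Ndufb6, whose levels lay closest to the sum among members with a match. Atp5j has another listed start with no match, which is not shown. Capitals mark the motifs, which do not overlap in these sequences, and the letters are those of the minus strand, on which all 3 genes lie:
Cox6a1, chr5:115348959-115349208, NRF1 then ETS: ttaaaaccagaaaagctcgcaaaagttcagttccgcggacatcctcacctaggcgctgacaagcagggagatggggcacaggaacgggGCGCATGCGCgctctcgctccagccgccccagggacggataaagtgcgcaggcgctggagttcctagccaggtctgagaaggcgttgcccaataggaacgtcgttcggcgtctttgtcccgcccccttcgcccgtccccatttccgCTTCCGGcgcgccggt
Atp5j, chr16:84834977-84835226, YY1 then ETS: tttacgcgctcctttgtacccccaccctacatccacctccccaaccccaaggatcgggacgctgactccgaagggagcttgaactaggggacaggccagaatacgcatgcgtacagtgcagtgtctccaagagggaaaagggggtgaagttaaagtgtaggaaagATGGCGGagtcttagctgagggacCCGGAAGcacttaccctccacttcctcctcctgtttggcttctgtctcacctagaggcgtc
Ndufb6, chr4:40279422-40279671, ETS: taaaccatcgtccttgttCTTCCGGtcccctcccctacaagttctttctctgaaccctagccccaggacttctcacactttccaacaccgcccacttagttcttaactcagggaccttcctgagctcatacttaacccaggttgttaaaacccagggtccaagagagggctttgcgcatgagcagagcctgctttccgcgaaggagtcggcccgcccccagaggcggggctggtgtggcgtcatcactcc

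Neuron-like cells had nearly all nuclear-encoded members above the other named cells. Of the 90 members with at least 50 UMIs, 84 were above 0 on the log2 scale (93.3%, against 46.1% of the 13888 genes measured), with a median difference of 0.55 log2 units against -0.06 over all genes. Most differences were small: 8 of 90 members (8.89%) were at least 1 log2 unit higher, while 9.68% of all genes were, so this count was no more than the background. The 3 members at least 1 log2 unit lower were Cox6b2, Ndufa4l2 and Cox4i2 (3.33%, against 12.4% of all genes). All 44 members of complex I, all 8 of complex III and all 17 of complex V were above 0. Of the mt-encoded members, 3 of 13 were above 0, with a median of -0.16.

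The member furthest above the other cells was Atp5g1 (chromosome 11, 96068852 to 96075670), one of the genes for the ring subunit c of ATP synthase. Its neuron-like values in the 4 barcode numbers were 939, 966, 966 and 980 CPM, and the next type, differentiating OPC-like cells, had 448, 489, 512 and 485 CPM. The neuron-like values lay above all others, and the difference from other cells was 1.51 log2 units. The paralogs Atp5g2 and Atp5g3 encode the same mature protein with other import sequences. Of the UMIs of the 3 genes in neuron-like cells, Atp5g1 took 54.8% (53.9 to 55.7), Atp5g2 20.6% (19.9 to 21.3) and Atp5g3 24.6% (23.8 to 25.4). In microglia-like cells Atp5g2 took 45.7% (42.3 to 49.2) and Atp5g1 40.1% (36.7 to 43.5), and these intervals do not overlap with those of neuron-like cells. Atp5g3 was also among the members past 1 log2 unit in neuron-like cells (1.29), with 408 to 447 CPM.

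Ndufa4, a subunit of complex IV in spite of its symbol, had 1161, 1214, 1275 and 1276 CPM in neuron-like cells. The next type, OPC-like cells, had 947, 937, 861 and 869 CPM, and microglia-like cells were lowest with 295 to 361 CPM. Cox7a2l, described below, was also past 1 log2 unit in neuron-like cells (1.29). The remaining members past it were Ndufa5, Ndufb5, Ndufaf5 and Cox5a. Ndufa5 and Ndufb5, accessory subunits of complex I, had 640 to 704 CPM and 527 to 592 CPM in neuron-like cells. Ndufaf5, an assembly factor of complex I, had 34.3 to 56.5 CPM, and Cox5a, a subunit of complex IV, 491 to 556 CPM. For Ndufb5 the ependymocyte-like values (477 to 571 CPM) overlapped with the neuron-like ones, and for Cox5a the highest endothelial-like value (517 CPM) did too.

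Cox7a2l, known as a factor in the joining of complexes III and IV into supercomplexes, had an RNA pattern of its own. Whether its protein does so in these mice was not tested. Neuron-like cells had 504 to 616 CPM, macrophage-like cells 409 to 730 CPM and microglia-like cells 403 to 453 CPM, whereas astrocyte-like cells were lowest with 90.7 to 128 CPM. It was the nuclear-encoded member with the largest positive difference in both macrophage-like (0.87 log2 units) and microglia-like cells (0.57), types in which 5 and 3 of 90 nuclear members were above 0 (against 24.9% and 27.5% of all genes). Of the UMIs of Cox7a1, Cox7a2 and Cox7a2l together, Cox7a2l made 62.2% (59.0 to 65.3) in microglia-like and 21% (19.2 to 22.9) in astrocyte-like cells.

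Microglia-like cells lay at least 1 log2 unit below the other named cells for 25 of 90 nuclear-encoded members (27.8%, against 20% of all genes), and macrophage-like cells did for 26 of 90 (28.9%, against 23.7%). In neither type was a nuclear member 1 log2 unit higher, as 7.6% of all genes were in microglia-like and 7.3% in macrophage-like cells. The medians were -0.87 and -0.77, below the -0.37 and -0.45 of all genes. Of the 13 mt-encoded members, 7 were past the threshold in each type. The lowest in microglia-like cells was mt-Co3 (-1.40) and in macrophage-like cells mt-Cytb (-1.68), the only mt-encoded subunit of complex III. Among nuclear-encoded members of microglia-like cells, Ndufa12 (-1.54), Ndufa11 (-1.48) and Ndufs5 (-1.47), accessory subunits of complex I, were lowest, while Sdhd, the membrane anchor of complex II, was above 0 (0.25).

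Paralogs of complex IV subunits gave the sharpest differences between cell types. Ndufa4l2, the paralog of Ndufa4 that low oxygen induces (chromosome 10, 127514967 to 127517154), was highest in mural-like cells, with 1674, 1796, 1064 and 653 CPM in the 4 barcode numbers. There it made 68.0% (63.2 to 72.5) of the UMIs of Ndufa4 and Ndufa4l2, and 61 of 75 cells had a UMI of it. In microglia-like cells it made 0.467% (0.0566 to 1.68). The mural-like values lay above those of all other types, the next being VLMC-like cells with 112, 118, 165 and 79.4 CPM. At Leiden resolution 2 mural-like cells split into a cluster led by Acta2 and Tagln (47 cells) and one led by Vtn and Rgs5 (28 cells). Ndufa4l2 was among the leading genes of the latter only. The part of this mix in the spread over the barcode numbers was not tested.

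Cox4i2, the oxygen-responsive form of subunit 4 (chromosome 2, 152754173 to 152765037), shared this pattern. Mural-like cells had 959, 1181, 862 and 709 CPM, and Cox4i2 made 42.7% (38.2 to 47.3) of the UMIs of both forms of subunit 4. In neuron-like cells it made 0.0671% (0.0270 to 0.138), and 77.3% of mural-like cells had a UMI against 1.38% of neuron-like cells, which were deeper. Endothelial-like cells came next with 0, 113, 20.3 and 62.5 CPM, but markers of mural cells moved with it. The mural list (27.8 CPM in neuron-like cells) summed to 0 CPM in endothelial-like cells of barcode number 1 and to 1644 to 1949 CPM in the other 3 numbers. Ndufa4l2 in endothelial-like cells went the same way (0, 88.0, 122 and 93.7 CPM). Of the 7 endothelial-like cells with Ndufa4l2, 5 held at least 3 mural markers, against 0 of the 77 without. The part of mural RNA in these endothelial-like values was not tested beyond this. In VLMC-like cells 2 of the 61 cells with Ndufa4l2 held at least 3 mural markers, against 4 of the 207 without.

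Mural-like cells had 3 of 90 nuclear members at least 1 log2 unit higher than the other cells (3.33%, against 6.26% of all genes), which were Cox4i2, Ndufa4l2 and Sdhc, a membrane anchor of complex II (150, 221, 203 and 389 CPM from 8 to 28 UMIs per number). Atp5g1, Atp5s, Cox6a2, Ndufaf6 and Ndufc2 were at least 1 log2 unit lower (5 of 90, 5.56%, against 19% of all genes). Of 90 members, 56 were above 0 (62.2%, against 30.5% of all genes). Cox8a, a small subunit of complex IV, had 1448 to 2044 CPM in mural-like and 1326 to 1403 CPM in neuron-like cells, both above the 521 CPM of mature oligodendrocyte-like cells. mt-Nd6 had no UMI in mural-like cells, where 3 counts would be 13.3 CPM, a limit close to the 16 CPM of the highest type.

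Cox6b2, known as the testis form of subunit 6b (chromosome 7, 4751792 to 4753094), was highest in VLMC-like cells with 215, 157, 196 and 297 CPM, where it made 31.1% (27.3 to 35.2) of the UMIs of Cox6b1 and Cox6b2. Tanycyte-like cells followed with 67.2, 79.0, 52.8 and 54.0 CPM, which overlapped with ependymocyte-like cells (25.1 to 68.0 CPM). In neuron-like cells it made 0.603% (0.429 to 0.824) of the pair. With Ndufa4l2, Cox6b2 made up the 2 of 90 nuclear members at least 1 log2 unit higher in VLMC-like cells (2.22%, against 6.05% of all genes).

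Cox6a2, known as the heart and muscle form of subunit 6a (chromosome 7, 128205435 to 128206387), was highest in tanycyte-like cells, with 103, 117, 109 and 137 CPM. Neuron-like cells followed with 53.7, 41.8, 85.2 and 84.7 CPM, and every other type was at or below the 22.8 CPM of microglia-like cells. Cox6a2 made 14.3% (13.4 to 15.3) of the UMIs of Cox6a1 and Cox6a2 in tanycyte-like and 10.5% (9.63 to 11.5) in neuron-like cells. The tanycyte marker list summed to 131 CPM in neuron-like against 2608 CPM in tanycyte-like cells. A Cox6a2 UMI was found in 28.5% of tanycyte-like, 24.4% of neuron-like and 6.67% of microglia-like cells, and in 11.4%, 6.10% and 3.21% once each cell was thinned to 1000 UMIs.

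Tanycyte-like cells had 3 of 90 nuclear members at least 1 log2 unit higher than other cells (3.33%, against 4.15% of all genes), and 0 lower (against 8.95%). The higher ones were Cox6a2 (1.78), Cox6b2 (1.10) and Ndufc2 (1.28), an accessory subunit in the membrane arm of complex I. Ndufc2 had 1116, 1189, 1124 and 1076 CPM in tanycyte-like cells and 631 to 662 CPM in neuron-like cells, the next type. Its tanycyte-like values lay above those of every other type.

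Ependymocyte-like cells, the ciliated lining of the ventricle, had Cox7a1 and the complex I assembly factor Ndufaf8 at least 1 log2 unit above other cells (2 of 90, 2.22%, against 8.69% of all genes). Cox7a1, the heart and muscle form of subunit 7a, had 60.2, 67.8, 40.4 and 38.4 CPM there from 11 to 13 UMIs per number. Single numbers of pars tuberalis-like (86.3 CPM from 5 UMIs) and mural-like cells (84.5 CPM from 5 UMIs) were higher, so the types overlapped for Cox7a1. Endothelial-like cells had Ndufa7, an accessory subunit of complex I, at 1421, 1383, 995 and 812 CPM, above the 348 to 771 CPM of mural-like and 462 to 692 CPM of ependymocyte-like cells. With Cox4i2 and Ndufa4l2 it made 3 of 90 members (3.33%, against 7.95% of all genes).

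**Figure D4:**
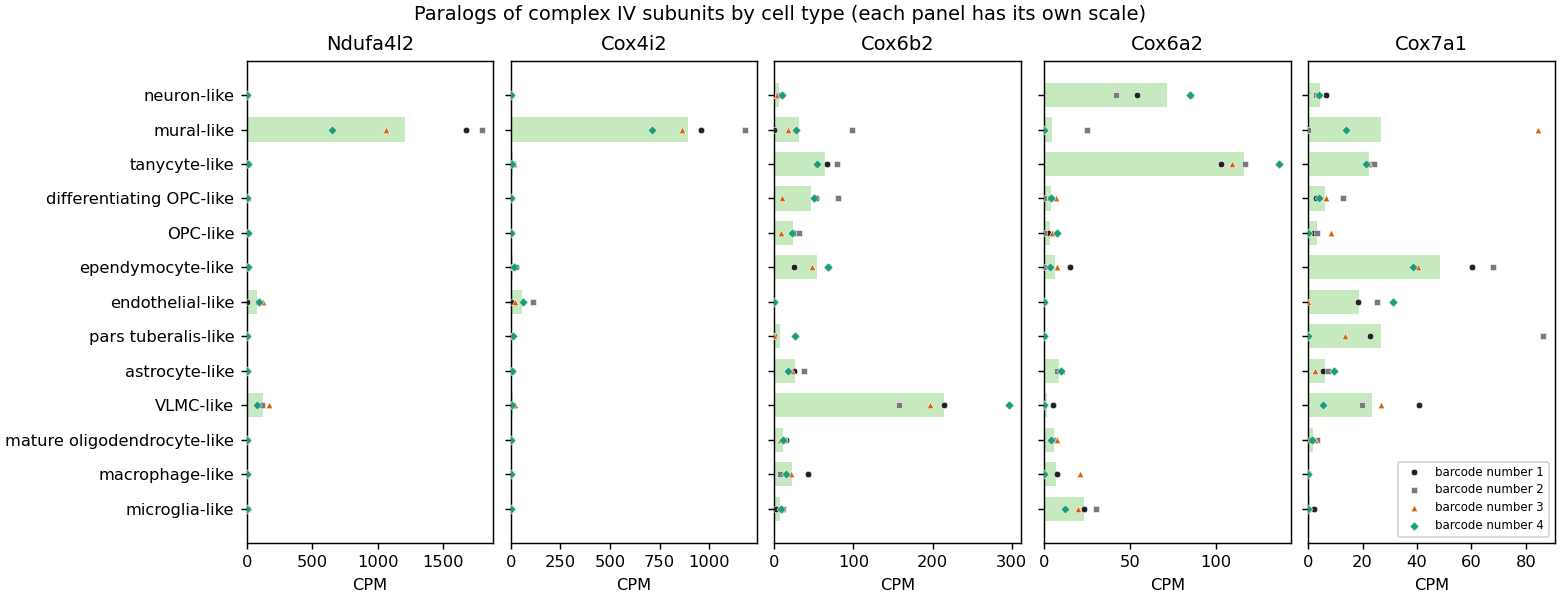
CPM of 5 paralogs of complex IV subunits in 13 cell types, each panel with its own scale. Bars are all cells of a type and points are the 4 barcode numbers. Ndufa4l2 and Cox4i2 stand out in mural-like cells, Cox6b2 in VLMC-like cells (157 to 297 CPM), Cox6a2 in tanycyte-like and neuron-like cells, and Cox7a1 rests on few UMIs with wide points.

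In the other types few nuclear members stood 1 log2 unit apart, and their shares were below those of all genes. None was higher in OPC-like (against 6.42% of all genes), differentiating OPC-like (5.53%), astrocyte-like (5.31%), mature oligodendrocyte-like (5.31%) or pars tuberalis-like cells (2.87%). At least 1 log2 unit lower were 3 of 90 in OPC-like (3.33%, against 8.19%), 3 in astrocyte-like (3.33%, against 12.7%), 4 in differentiating OPC-like (4.44%, against 13.1%), 4 in pars tuberalis-like (4.44%, against 14.8%), 4 in VLMC-like (4.44%, against 13.5%), 2 in ependymocyte-like (2.22%, against 10.5%), 7 in endothelial-like (7.78%, against 18.6%) and 14 in mature oligodendrocyte-like cells (15.6%, against 19.2%). Cox6a2 was among them in each of these 8 types, and Ndufa4l2 in 5.

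The remaining paralogs were barely detected. Cox7b2 gave 25 UMIs, Cox8b 30 UMIs, 13 of them in VLMC-like cells, and Cox8c 1 UMI over all 5982 cells, and these 3 genes are the nuclear members under 50 UMIs. Their widely used counterparts Cox7b and Cox8a gave 9064 and 27421 UMIs.

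Along the oligodendrocyte lineage, the 2 groups of members went apart at the last step. OPC-like and differentiating OPC-like cells were alike in both sums: the mt-encoded sums were 34944 and 34196 CPM and the nuclear-encoded sums 30251 and 31398 CPM, and in each case the values of the 4 numbers overlapped. Mature oligodendrocyte-like cells had a higher mt-encoded sum (46350 CPM) and a lower nuclear-encoded sum (22002 CPM), with no overlap of the 4 numbers in either. The higher mt-encoded sum rested mainly on the largest of their clusters (502 cells). In the other clusters, described below, the mt-encoded members lay much closer to those of differentiating OPC-like cells. The ratio went from 1.16 (1.14 to 1.19 in the 4 numbers) and 1.09 (1.06 to 1.11) to 2.11 (2.00 to 2.22).

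Between OPC-like and differentiating OPC-like cells, 0 of 83 nuclear-encoded members reached 1 log2 unit in either direction, where 6.42% of all 6867 genes were higher and 12.5% lower. The largest rise was that of Atp5e (0.80), the epsilon subunit of ATP synthase, and the largest fall that of Ndufaf3 (-0.64), an assembly factor of complex I. Over the same step the stress genes Egr1, Fos, Jun and Junb were at least 1 log2 unit lower, and differentiating OPC-like cells were deeper (a median of 8604 against 4025 UMIs). The part of either was not tested.

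Between differentiating OPC-like and mature oligodendrocyte-like cells, 12 of 13 mt-encoded members were above 0 with a median of 0.58, while 8 of 85 nuclear-encoded members were above 0 (against 32.6% of all 8105 genes) with a median of -0.45 (all genes, -0.30). None of the mt-encoded members reached 1 log2 unit, and the largest difference was that of mt-Nd4l (0.83). Of the nuclear members 6 were at least 1 log2 unit lower (7.06%, against 14.2% of all genes) and 0 higher (against 8.44%). These were Atp5e (-1.39), Cox6b2 (-1.40), Cox5a (-1.14), Ndufa12 (-1.14), Ndufaf7 (-1.14) and Cox7b (-1.06). Atp5e had 651, 752, 705 and 682 CPM in differentiating OPC-like and 263, 255, 277 and 240 CPM in mature oligodendrocyte-like cells, so the 4 numbers did not overlap. Cox7b, a subunit of complex IV, had 283 to 336 CPM before and 136 to 153 CPM after. Within mature oligodendrocyte-like cells, a cell's mt share fell with its depth (Spearman's rho of -0.485 over 666 cells, a description), and the stress genes Hspa1a and Jun were at least 1 log2 unit higher than in differentiating OPC-like cells. Their part was not tested.

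Clusters within a type also differed, and mainly in the mt-encoded members. Since the clusters were built from the same cells and genes, these values are a description. Tanycyte-like cells fell into 3 clusters, of which the one with Col25a1 among its leading genes (538 cells) had 60805 CPM of mt-encoded members, with 60468, 57961, 65788 and 60030 CPM in the 4 numbers. The largest cluster (733 cells) had 45397 CPM and the one with Gfap among its leading genes (366 cells) 38997 CPM, while the nuclear-encoded sums were 32531, 33818 and 30713 CPM in the same order. All 13 mt-encoded members were higher in the Col25a1 cluster than in the largest. Fos was also higher in it, at 183 CPM against 22 CPM in the largest and 95.4 CPM in the Gfap cluster, and its part in this was not tested.

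The paralogs went opposite ways between these tanycyte-like clusters. Cox6a2 had 67.7 CPM in the Col25a1 cluster against 142 and 148 CPM in the largest and the Gfap cluster. Cox6b2 had 99.6 CPM against 40.6 and 45.6 CPM. For Cox6b2 the 4 numbers of the Col25a1 cluster (93.0 to 107 CPM) lay above those of both others (26.5 to 61.9 CPM), and for Cox6a2 they lay below (41.8 to 97.0 against 114 to 164 CPM).

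Mature oligodendrocyte-like cells also fell into 3 clusters. The largest (502 cells) had a ratio of 2.36, with 2.29 to 2.43 in the 4 numbers, whereas the cluster with Klk6 among its leading genes (82 cells) had 1.65 and the third (82 cells) 1.66. Every mt-encoded member was higher in the largest cluster than in either other cluster, and mt-Co3 had 11710, 8854 and 7741 CPM in the same order. Their median depths were 5774, 7592 and 11132 UMIs, and the part of depth was not tested. Neuron-like clusters varied more in the nuclear sum: the Sst-led cluster (367 cells) had 43594 CPM, the Agrp-led cluster (65 cells) 41064 CPM and the cluster led by Scg2 and Avp (76 cells) 35626 CPM. The last also had the shallowest cells, with a median of 6790 UMIs against 13722 and 18665, and the part of depth was not tested. Atp5g1 was at 984, 1117 and 451 CPM in the same order, and Cox6a2 at 90.3, 7 and 36.2 CPM.

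The make-up of the mt-encoded sum also differed between types. mt-Atp6 took 20.2% of it in neuron-like and 26.3% in endothelial-like cells, and mt-Co3 18.2 to 23.1%. The share of mt-Nd1 was 13.4% in neuron-like and 4.59% in ependymocyte-like cells. In CPM, mt-Nd1 had 2097, 2141, 2313 and 2202 in ependymocyte-like cells against 4722 to 5823 in neuron-like cells, although the mt-encoded sum was higher in the former. mt-Nd3 was lowest in the same type, at 0.313% against 0.790% in mural-like cells, and mt-Co1 was highest there, at 17.9%. mt-Atp8 ranged from 0.155% in VLMC-like to 0.390% in microglia-like cells, and mt-Nd2 from 1.52% in pars tuberalis-like to 3.12% in astrocyte-like cells.

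A cluster that holds the pars tuberalis-like cells also held 53 cells with high mt-encoded and low nuclear-encoded shares. It was divided after the data had been seen: 35 cells with at least 5 UMIs of Cga, the hormone subunit of the pars tuberalis, kept the name, and 53 cells with 0 or 1 Cga UMI were left unnamed and out of all comparisons. The unnamed cells had a median mt share of 13.9% of UMIs (10th to 90th percentile 4.43 to 31.6%), against 4.78% in pars tuberalis-like and 3.70% in neuron-like cells. They held 7 of 7 neuron markers, but at unlike levels. Snhg11 was at 6322 CPM against 3185 CPM in neuron-like cells, and Syt1 at 412 against 236 CPM. Rbfox3 was about level (87.2 against 85.5 CPM). Snap25 (392 against 896 CPM), Stmn2 (363 against 714 CPM), Tubb3 (339 against 473 CPM) and Celf4 (547 against 807 CPM) were lower. The feeding peptide gene Pomc was at 7789 CPM against 193 CPM. All 13 mt-encoded members were at least 1 log2 unit above neuron-like cells (1.27 to 2.01), as 6.87% of all 9792 genes with at least 50 UMIs were. Of the 86 nuclear-encoded members with that many UMIs, 38 were at least 1 log2 unit below (44.2%, against 10.1% of all genes). These are descriptions of cells set apart after their values were seen. Of the 18 cells in the data with over 20% mt-encoded UMIs, 15 were among these 53, and 11 of the 15 had barcode number 3. Their ratio was 4.22, 4.48, 9.40 and 6.14 in the 4 numbers.

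**Figure D5:**
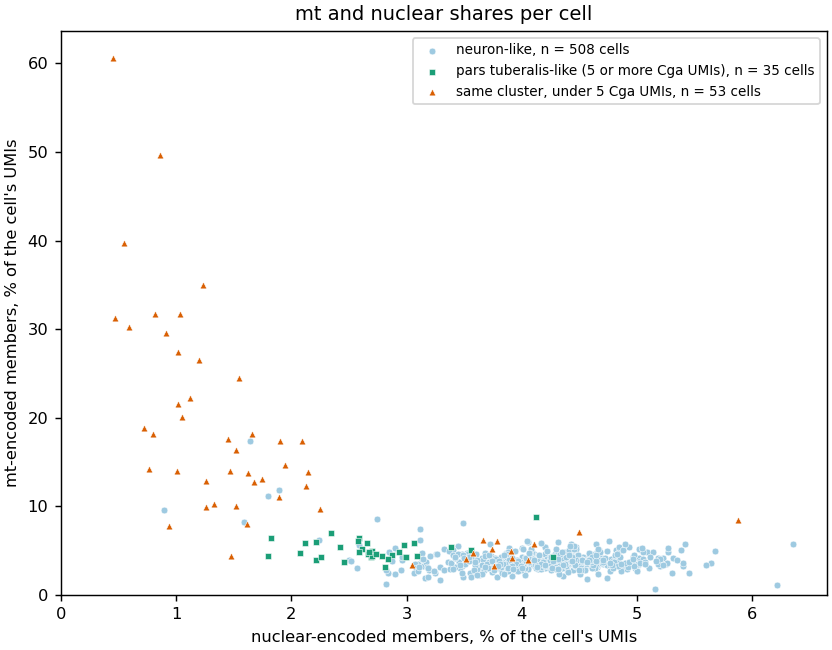
Share of a cell's UMIs from the 13 mt-encoded members (vertical) and from the 93 nuclear-encoded members (horizontal) in neuron-like cells, pars tuberalis-like cells and the Cga-low cells of the same cluster, 1 point per cell. Many of the 53 Cga-low cells (triangles) lie at high mt and low nuclear shares, away from most neuron-like cells, with a median mt share of 13.9% against 3.70%.

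Genes around the chain were set beside the members by type, from lists made for this purpose. The 15 citric acid cycle genes summed highest in neuron-like (1877 CPM) and lowest in macrophage-like cells (704 CPM), and over the 13 types their log2 sum correlated with the nuclear-encoded sum at r = 0.87 (Spearman's rho of 0.81, a description). Of these 15 genes, 1 was at least 1 log2 unit higher in neuron-like cells (Sucla2) and 1 lower (Suclg2), with a median of 0.30, and both shares lie below the 9.68% and 12.4% of all genes. The 17 glycolysis genes followed another order (r = 0.47), with astrocyte-like cells first (10976 CPM), tanycyte-like cells next (8105 CPM) and neuron-like cells after them (6543 CPM). Of these, 3 were at least 1 log2 unit higher in neuron-like cells (Eno2, Pgam1 and Pkm) and 2 lower (Aldoc and Hk2), beside the same 9.68% and 12.4% of all genes. In microglia-like cells 10 of the 17 were lower and 1, Hk2, higher, where 20% of all genes were lower and 7.6% higher.

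Lists of genes that act on the chain or beside it were also counted. Of the 14 genes for transcription and upkeep of mitochondrial DNA, 0 were past 1 log2 unit in neuron-like cells, and their sum was highest in OPC-like (512 CPM) and lowest in mature oligodendrocyte-like cells (176 CPM), the type with the highest mt to nuclear ratio. Of the 12 assembly genes of complex IV, Cox17, a copper carrier, was past 1 log2 unit in neuron-like cells, with a list median of 0.33. The sum of this list was highest in pars tuberalis-like cells (1327 CPM), with neuron-like cells next (1263 CPM). Among 9 carrier and uncoupling genes, Slc25a14 and Vdac3 were higher and Slc25a5 lower in neuron-like cells, while in microglia-like cells Ucp2 was higher and Slc25a14, Slc25a4, Vdac1 and Vdac3 were lower. With so few genes, these counts stand beside all-gene shares of 9.68% higher and 12.4% lower in neuron-like and 7.6% higher and 20% lower in microglia-like cells. The 5 genes of the mobile carrier and late subunits, among them cytochrome c, had 0 past the threshold in neuron-like cells and a median of 0.44. Their sum was highest in ependymocyte-like cells (4337 CPM), with neuron-like cells next (2710 CPM).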

How the data were processed

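Droplet 3′ libraries were made from ME cells of fasted and refed mice. The submitters' processing notes name Cell Ranger 2.0 and mm10, and the authors deposited 1 matrix of raw UMI counts, genes by cells. The annotation release and cell calling are not given in the sources used here. Symbols and positions of 27645 of 27998 genes came from GENCODE vM21. Reads that fit several copies of a gene, such as pseudogenes, may be lost or misplaced.

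Cells were clustered with scanpy 1.11.5 (2000 variable genes, 30 components, 15 neighbours, Leiden resolution 1, seed 0). A cluster was named by its best of 13 marker lists at a score of at least 0.3, 1.5 times the next, with 3 markers at least 4 times above the median cluster and 1 among its 50 leading genes. The last rule and the division by Cga were set after seeing the data, and 3 cells in which haemoglobin genes gave 10% or more of the UMIs were treated as erythrocytes. Scrublet called 50 doublets (0.836%), which were kept. The 60 other unnamed cells were left out.

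CPM is the summed UMIs of a type per 1e+06, so deep cells weigh more. Differences are log2 of CPM plus 10 on both sides, for genes with at least 50 UMIs, and were called at 1 log2 unit. The step was also run on simulated counts drawn from a shared profile, in which some genes not of low level were changed by a set fold. That simulation held no spread between cells, libraries or mice, so it covers counting error only. Intervals are exact Poisson (CPM), exact binomial (shares and ratios). Members and lists were chosen with earlier results of these data known. Values were described over types and barcode numbers with no test, and alternatives changed clustering, depth, doublets, scaling, pseudocount, filter and barcode numbers. Named genes are all mt-encoded members, per complex the 3 nuclear members with most UMIs and the 2 most uneven between types, paralog families and the 5 genes most like the nuclear sum. Others, such as those past 1 log2 unit, were named after their values were seen.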

Additional observations from a re-analysis of the deposited data

How the results depend on the processing

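No paired analysis was possible because no cell could be given a condition. The spreads between the highest and lowest type were 3.41-fold (mt-encoded), 2.39-fold (nuclear-encoded) and 2.34-fold (ratio), and their end types were the same in the other settings unless named here. K-means with 9 clusters named 5 types, neuron-like and microglia-like cells not among them, so its end types differed, and gave 1.23, 1.49 and 1.37. Leiden resolutions of 0.5 and 2 both gave a ratio spread of 2.24. Thinning to 1000 UMIs gave 3.25, 2.45 and 2.41, and values per cell gave 3.31 (mt-encoded) and 2.49 (ratio). Without mt-Atp6 the mt-encoded spread was 3.23 and the ratio spread 2.19. Per 1e+06 nuclear-genome UMIs the nuclear spread was 2.45, and without Malat1 (an alternative added after seeing the data) 2.44, with mural-like cells highest. Without the division by Cga, also added later, pars tuberalis-like cells became highest and the spreads were 4.96 (mt-encoded) and 3.84 (ratio). Leaving out each barcode number in turn gave 3.22 to 3.58 (mt-encoded), 2.38 to 2.41 (nuclear-encoded) and 2.32 to 2.37 (ratio), with counts of 8 calls in neuron-like cells and 0 between OPC-like and differentiating OPC-like cells. A pseudocount of 50 CPM left 5 calls in neuron-like cells, and the other settings left 6 to 8, while the count of 0 held in every setting tried.

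With 1 pool per condition and no replicate, differences between types cannot be set against the spread between mice. Intervals cover counting error only. The smallest types (35 pars tuberalis-like, 75 mural-like and 84 endothelial-like cells) give the least certain values, and rare paralogs rest on few UMIs there.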
